A study of Arabidopsis thaliana with 12 samples.

Results

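The cysteine-rich receptor-like kinases (CRKs) are 41 loci among the 36917 loci counted in each of 12 Arabidopsis thaliana RNA-seq libraries. They were taken as a list of locus identifiers of the family, which was chosen with earlier results of these data known. Of the 41, 24 had enough reads to be tested and 17 did not. The study compared the triple mutant flu/ex1/ydl1 with the double mutant flu/ex1 before and after the release of singlet oxygen. Both genotypes carry the flu and ex1 mutations, so neither is a wild type, and ydl1 is the mutation that separates them. Plants were grown in soil for 6 days in continuous light and held in darkness for 4 h. They were sampled as flu/ex1/ydl1 at 0, 30 and 60 min of renewed light, and as flu/ex1 at 0, 30 and 60 min, with 2 libraries in each of the 6 groups.

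A CRK is a plasma membrane protein with an extracellular part that holds the cysteine-rich DUF26 domain, a single membrane span and an intracellular serine/threonine protein kinase. Many CRK genes respond to pathogens, salicylic acid and reactive oxygen, and several CRKs act in pattern-triggered immunity and in the oxidative burst at the cell surface. The flu mutant accumulates protochlorophyllide in darkness and produces singlet oxygen in its plastids when it is returned to light, and EX1 is a plastid protein that passes on the resulting signal.

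The light time was taken from the code in each deposited file's name, because the sample labels gave another time for 8 of the 12 libraries. The genotype in the file name and in the label differed for 0 libraries, and each of the 12 file codes was the code in 1 sample title. Libraries are called here by genotype, file-name time and replicate number, and paired values follow the replicate number. The libraries held 7859611 to 11591060 counts, of which plastid loci took 63.3% to 71.7%. Levels are CPM, counts scaled to library size and by TMM, and 1 count was worth 0.0631 to 0.179 CPM. Nothing in the labels tells if libraries of a group came from separate plants, so p-values measure the spread between these libraries, which may be technical. These are bulk samples of plants, in which fewer cells of a type and less RNA per cell cannot be told apart. The 6 leaf markers summed to 9530 to 13097 CPM in flu/ex1/ydl1 and to 8309 to 11085 CPM in flu/ex1, and the 4 root markers to 41.3 to 55.2 CPM in flu/ex1/ydl1 and 42.5 to 59.3 CPM in flu/ex1. The root sum was mostly BGLU23, at a mean of 48.0 CPM, with IRT1 and COBL9 at 14 and 6 counts in all. The 4 seed storage markers summed to 0.406 to 1.97 CPM in flu/ex1/ydl1 and 0.211 to 1.38 CPM in flu/ex1 over all libraries. At 60 min they summed to 0.761 to 1.97 CPM in flu/ex1/ydl1, against 0.211 to 0.316 CPM in flu/ex1. Each of the 4 averaged under 1 CPM, and their part in the results was not tested. FLU ranged over 29.5 to 59.8 CPM in flu/ex1/ydl1 and 45.2 to 56.4 CPM in flu/ex1, and EX1 over 2.09 to 5.36 CPM in flu/ex1/ydl1 and 2.91 to 5.22 CPM in flu/ex1. Both mutations are shared by the genotypes, so these levels check no label. The locus of YDL1 is not given in the sources used here, and its level was not checked.

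Upstream sequence is shown for 4 members because W-boxes, the sites bound by WRKY transcription factors, are known from promoters of salicylic acid-responsive CRK genes. The windows are the 250 bases before the annotated gene start, read 5′ to 3′ on the gene's strand from the RefSeq assembly TAIR10.1. Its nuclear chromosomes are those of TAIR10, the build of the reads, and the annotation the authors counted against is not given in the sources used here. Capitals mark the W-box core TTGAC on either strand, which reads as GTCAA where it lies on the other strand. CRK11 had the most matches of any member, CRK41 had 4, CRK10 had 1 and CRK3 had 0, and all 4 genes were called higher in flu/ex1/ydl1 at 60 min.
CRK11 (AT4G23190, chr4:12143859-12144108, minus strand): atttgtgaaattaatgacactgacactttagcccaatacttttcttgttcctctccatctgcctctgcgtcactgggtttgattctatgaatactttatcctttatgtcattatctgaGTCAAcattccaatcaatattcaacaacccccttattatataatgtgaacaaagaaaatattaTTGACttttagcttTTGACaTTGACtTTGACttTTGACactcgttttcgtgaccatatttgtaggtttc
CRK41 (AT4G00970, chr4:418077-418326, plus strand): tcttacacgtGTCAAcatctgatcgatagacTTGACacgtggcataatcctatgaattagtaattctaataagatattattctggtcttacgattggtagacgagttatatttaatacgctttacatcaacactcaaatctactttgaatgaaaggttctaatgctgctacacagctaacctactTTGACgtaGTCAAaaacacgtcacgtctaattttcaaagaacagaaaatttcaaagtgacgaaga
CRK10 (AT4G23180, chr4:12137745-12137994, plus strand): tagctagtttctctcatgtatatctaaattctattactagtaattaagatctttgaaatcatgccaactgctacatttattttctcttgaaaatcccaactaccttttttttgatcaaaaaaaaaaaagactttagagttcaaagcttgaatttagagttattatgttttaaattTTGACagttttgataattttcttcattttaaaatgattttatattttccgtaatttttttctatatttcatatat
CRK3 (AT1G70530, chr1:26591777-26592026, minus strand): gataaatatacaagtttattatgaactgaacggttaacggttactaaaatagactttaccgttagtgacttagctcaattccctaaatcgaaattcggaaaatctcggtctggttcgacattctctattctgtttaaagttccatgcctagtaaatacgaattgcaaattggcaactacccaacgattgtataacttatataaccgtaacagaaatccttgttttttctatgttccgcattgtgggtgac
Most of the 6 matches of CRK11 lay close together near the gene start and in the same orientation. The core was found in 30 of the 41 member windows (73.2%) and in 44.9% of the same windows of 27444 protein-coding loci. Windows with 2 or more matches made up 41.5% of members and 14.1% of all loci. The longer forms TTGACC or TTGACT, which contain the core, occurred in 63.4% of member windows and 28.4% of all. Among members called higher at 60 min, 11 of 17 windows held the core, with a mean of 1.65 matches. Among the 7 that were tested and not called it was 3, with a mean of 0.857, and among the 17 too low to test it was 16, with a mean of 1.41. The share with the core was thus larger among members too low to test than among those called higher, and a match describes letters only.

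The summed level of all 41 members was 72.9 and 65.3 CPM in the flu/ex1/ydl1 libraries at 0 min, 201 and 223 CPM at 30 min, and 231 and 288 CPM at 60 min. In flu/ex1 the sum was 62.0 and 71.3 CPM at 0 min, 87.3 and 82.0 CPM at 30 min, and 84.8 and 85.7 CPM at 60 min. The genotypes overlapped in darkness and stood apart at both light times. The 15 neighbouring members from AT4G23130 to AT4G23270 made up 35.8%, 59.9% and 59.7% of the family sum at 0, 30 and 60 min in flu/ex1/ydl1. Their share in flu/ex1 was 33.0%, 43.1% and 41.8%.

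**Figure D1:**
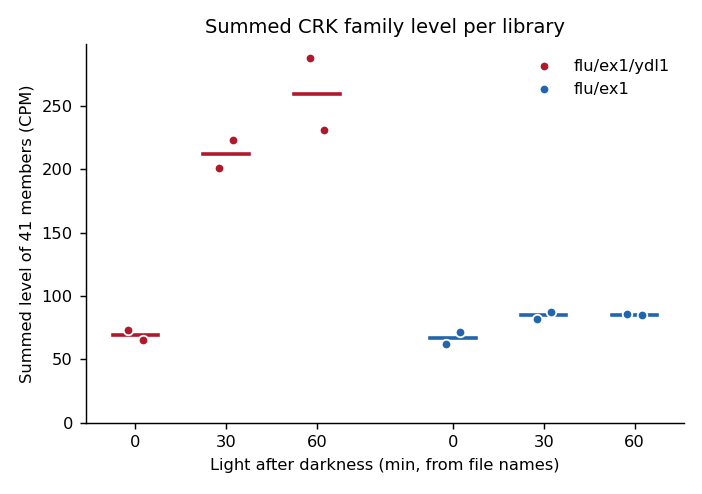
Summed CPM of the 41 members (vertical axis) against minutes of light (horizontal axis), with flu/ex1/ydl1 in red on the left and flu/ex1 in blue on the right. Points are libraries and bars are the means of 2: the red points reach 288 CPM at 60 min and the blue points stay at or below 87.3 CPM.

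At 60 min of light, 17 of the 24 tested members were called higher in flu/ex1/ydl1 than in flu/ex1 and 0 were called lower. A call is an adjusted p under 0.05 in edgeR's quasi-likelihood test with Benjamini-Hochberg adjustment over all 17879 genes tested, of which 9.86% were called in this comparison. The median log2 fold change was 1.92 over the tested members and -0.05 over all genes tested. The higher members included CRK11, CRK28, CRK3 and CRK14, and also CRK2, CRK13 and CRK36, which have known parts in immunity. CRK31, CRK36 and CRK39 passed the filter on low counts only through flu/ex1/ydl1 at 30 or 60 min, so they had to differ. Of the 21 members that passed it in flu/ex1 alone, 14 were called at 60 min. Without flu/ex1 60 min replicate 1 the count was 10, with 27 members then tested, and the members no longer called were CRK2, EMB1290, CRK18, CRK29, CRK31, CRK36 and CRK39. Without flu/ex1/ydl1 60 min replicate 2, CRK2, CRK29, CRK31, CRK36 and CRK39 were not called, and without flu/ex1 60 min replicate 3, CRK2 and CRK36 were not. In these repeats a lone library was assumed to vary like the other groups. The share of all genes called is not given for them, so the loss may not be particular to these members.

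CRK11 (AT4G23190), which has been described as responsive to oxidative stress and salicylic acid, had 2.57 and 1.31 CPM at 0 min, 29.3 and 34.1 CPM at 30 min, and 32.5 and 43.5 CPM at 60 min in flu/ex1/ydl1. In flu/ex1, CRK11 had 2.91 and 2.36 CPM at 0 min, 6.66 and 5.38 CPM at 30 min, and 2.71 and 4.5 CPM at 60 min. The lit flu/ex1/ydl1 libraries were all above every flu/ex1 library, and the log2 fold change at 60 min was 3.41 ± 0.31 (SE, edgeR adjusted p = 3.09e-06). CRK10 (AT4G23180), its neighbour on the opposite strand and also salicylic acid-responsive, had 3.52 and 2.49 CPM at 0 min, 34.3 and 29.3 CPM at 30 min, and 32.9 and 37.7 CPM at 60 min in flu/ex1/ydl1. CRK10 in flu/ex1 had 3.74 and 2.86 CPM at 0 min, 7.05 and 6.48 CPM at 30 min, and 7.7 and 8.15 CPM at 60 min, with every lit library above both dark ones there too. Its log2 fold change between genotypes at 60 min was 2.16 ± 0.24 (SE, edgeR adjusted p = 1.37e-05). The annotated genes CRK10 and CRK11 overlap by 32 bases at their ends.

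CRK14 (AT4G23220) had 2.98 and 1.83 CPM at 0 min, 11.7 and 12.7 CPM at 30 min, and 10.9 and 14.8 CPM at 60 min in flu/ex1/ydl1. In flu/ex1, CRK14 had 1.94 and 2.17 CPM at 0 min, 2.55 and 2.49 CPM at 30 min, and 1.83 and 2.25 CPM at 60 min. All flu/ex1 libraries lay below every lit flu/ex1/ydl1 library, and the log2 fold change between genotypes at 60 min was 2.67 ± 0.28 (SE, edgeR adjusted p = 8.95e-06). CRK12 (AT4G23200) had 0.813 and 1.31 CPM at 0 min, 3.89 and 7.0 CPM at 30 min, and 6.79 and 7.91 CPM at 60 min in flu/ex1/ydl1. Levels of CRK12 in flu/ex1 were 0.969 and 0.788 CPM at 0 min, 0.685 and 1.4 CPM at 30 min, and 0.568 and 1.41 CPM at 60 min. The lit libraries of flu/ex1/ydl1 again lay above all others, with a log2 fold change at 60 min of 2.91 ± 0.43 (SE, edgeR adjusted p = 0.000159). CRK13 (AT4G23210), whose overexpression is known to raise resistance to Pseudomonas through salicylic acid, had 1.49 and 1.05 CPM at 0 min, 3.27 and 4.47 CPM at 30 min, and 4.82 and 5.4 CPM at 60 min in flu/ex1/ydl1. Levels of CRK13 in flu/ex1 were 0.554 and 0.689 CPM at 0 min, 1.66 and 1.4 CPM at 30 min, and 0.820 and 1.05 CPM at 60 min. The genotypes did not overlap at 60 min, and the log2 fold change was 2.45 ± 0.36 (SE, edgeR adjusted p = 0.000157).

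CRK19 (AT4G23270), whose induced expression is known to trigger cell death in leaves, had 1.9 and 1.05 CPM at 0 min, 7.03 and 7.78 CPM at 30 min, and 8.58 and 12.4 CPM at 60 min in flu/ex1/ydl1. In flu/ex1, CRK19 had 2.35 and 1.67 CPM at 0 min, 2.55 and 1.59 CPM at 30 min, and 2.27 and 1.76 CPM at 60 min. No flu/ex1 library reached the lowest lit flu/ex1/ydl1 library, and the log2 fold change at 60 min was 2.39 ± 0.32 (SE, edgeR adjusted p = 6.5e-05). EP1 (AT4G23170), also listed as CRK9, had 4.06 and 2.49 CPM at 0 min, 10.4 and 9.24 CPM at 30 min, and 15.4 and 12.2 CPM at 60 min in flu/ex1/ydl1. In flu/ex1, EP1 had 2.08 and 2.46 CPM at 0 min, 4.7 and 3.69 CPM at 30 min, and 3.66 and 4.71 CPM at 60 min. Its log2 fold change at 60 min was 1.71 ± 0.27 (SE, edgeR adjusted p = 0.000320), with no overlap between the genotypes. CRK18 (AT4G23260) had 2.17 and 1.57 CPM at 0 min, 6.28 and 5.15 CPM at 30 min, and 11.1 and 8.37 CPM at 60 min in flu/ex1/ydl1. In flu/ex1, CRK18 had 1.11 and 2.46 CPM at 0 min, 2.74 and 3.59 CPM at 30 min, and 2.84 and 4.15 CPM at 60 min. The log2 fold change of CRK18 at 60 min was 1.46 ± 0.32 (SE, edgeR adjusted p = 0.00525), and its 60 min libraries did not overlap between genotypes. EMB1290 (AT4G23250), also listed as CRK17, had 4.88 and 4.58 CPM at 0 min, 13.9 and 13.8 CPM at 30 min, and 20.01 and 13.2 CPM at 60 min in flu/ex1/ydl1. In flu/ex1, EMB1290 had 3.87 and 3.74 CPM at 0 min, 6.17 and 5.48 CPM at 30 min, and 6.63 and 7.59 CPM at 60 min. Both genotypes were higher at 60 min than in darkness in every library, and the log2 fold change between them at 60 min was 1.20 ± 0.25 (SE, edgeR adjusted p = 0.00293). EMB1290 shares 1190 annotated bases on the same strand with CRK16, so reads there may belong to either.

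**Figure D2:**
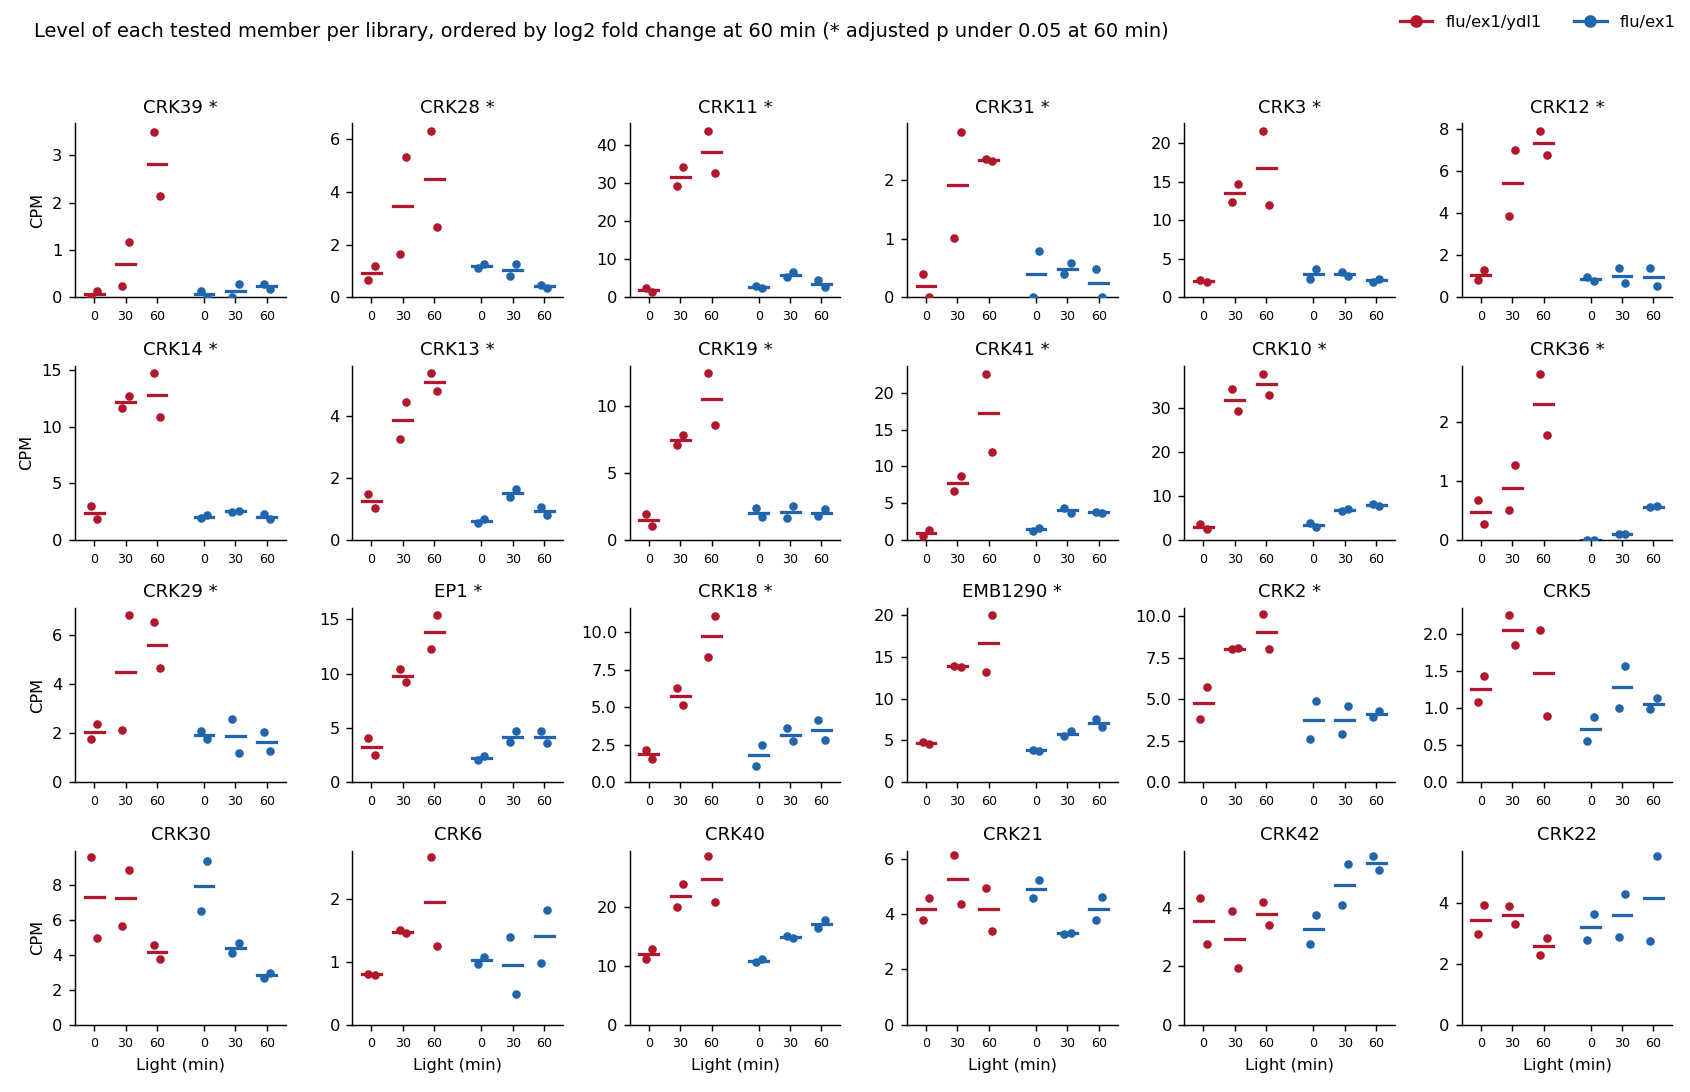
CPM of the 24 tested members (vertical axes, each from 0) against minutes of light, with flu/ex1/ydl1 in red on the left of each panel and flu/ex1 in blue on the right. Points are libraries, bars are means of 2 and asterisks mark the 17 members called at 60 min: in the CRK11 panel the red points reach 43.5 CPM and the blue points 6.66 CPM.

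Outside that array, CRK3 (AT1G70530) had 2.3 and 1.96 CPM at 0 min, 12.4 and 14.7 CPM at 30 min, and 12 and 21.6 CPM at 60 min in flu/ex1/ydl1. In flu/ex1, CRK3 had 2.35 and 3.74 CPM at 0 min, 2.84 and 3.29 CPM at 30 min, and 2.4 and 2.04 CPM at 60 min. The lit flu/ex1/ydl1 libraries stood well above all others, and the log2 fold change at 60 min was 2.94 ± 0.32 (SE, edgeR adjusted p = 9.14e-06). Its neighbour CRK2 (AT1G70520), which is known to bind and phosphorylate the NADPH oxidase RBOHD, had 3.79 and 5.76 CPM at 0 min, 8.04 and 8.07 CPM at 30 min, and 8.04 and 10.11 CPM at 60 min in flu/ex1/ydl1. In flu/ex1, CRK2 had 2.63 and 4.92 CPM at 0 min, 4.6 and 2.89 CPM at 30 min, and 4.29 and 3.93 CPM at 60 min. The 60 min libraries did not overlap, and the estimated log2 fold change was smaller than that of CRK3, at 1.16 ± 0.31 (SE, edgeR adjusted p = 0.0214).

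CRK28 (AT4G21400), known as a positive regulator of immunity that associates with BAK1, had 0.677 and 1.18 CPM at 0 min, 1.63 and 5.35 CPM at 30 min, and 2.68 and 6.31 CPM at 60 min in flu/ex1/ydl1. In flu/ex1, CRK28 had 1.11 and 1.28 CPM at 0 min, 1.27 and 0.797 CPM at 30 min, and 0.379 and 0.492 CPM at 60 min. The flu/ex1/ydl1 libraries at each light time differed from each other by over 1.5 times, yet none fell to the flu/ex1 level, and the log2 fold change at 60 min was 3.42 ± 0.58 (SE, edgeR adjusted p = 0.000571). CRK29 (AT4G21410), which lies beside CRK28 and shares 470 annotated bases with it on the same strand, had 1.76 and 2.35 CPM at 0 min, 2.14 and 6.81 CPM at 30 min, and 4.65 and 6.54 CPM at 60 min in flu/ex1/ydl1. In flu/ex1, CRK29 had 2.08 and 1.77 CPM at 0 min, 1.18 and 2.59 CPM at 30 min, and 1.26 and 2.04 CPM at 60 min. The genotypes overlapped at 30 min and not at 60 min, where the log2 fold change was 1.79 ± 0.47 (SE, edgeR adjusted p = 0.0177). CRK41 (AT4G00970), which has no tandem neighbour in the family and is known from salt stress, had 0.542 and 1.31 CPM at 0 min, 6.66 and 8.75 CPM at 30 min, and 12 and 22.6 CPM at 60 min in flu/ex1/ydl1. In flu/ex1, CRK41 had 1.25 and 1.67 CPM at 0 min, 3.72 and 4.28 CPM at 30 min, and 3.66 and 3.79 CPM at 60 min. It was higher in light than in darkness in each library of both genotypes, and the log2 fold change between genotypes at 60 min was 2.24 ± 0.32 (SE, edgeR adjusted p = 0.000104).

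The remaining called members were near the limit of detection in flu/ex1. CRK39 (AT4G04540) had 0 and 0.131 CPM at 0 min, 0.251 and 1.17 CPM at 30 min, and 2.14 and 3.5 CPM at 60 min in flu/ex1/ydl1. In flu/ex1, CRK39 had 0.138 and 0 CPM at 0 min, 0.294 and 0 CPM at 30 min, and 0.189 and 0.281 CPM at 60 min. The 60 min libraries did not overlap between genotypes, and the log2 fold change at that time was 3.57 ± 0.75 (SE, edgeR adjusted p = 0.00374) in a member that entered the test only through lit flu/ex1/ydl1. CRK36 (AT4G04490), known to associate with the immune kinase BIK1, had 0.677 and 0.262 CPM at 0 min, 0.502 and 1.26 CPM at 30 min, and 1.79 and 2.81 CPM at 60 min in flu/ex1/ydl1. In flu/ex1, CRK36 had 0 and 0 CPM at 0 min, 0.0979 and 0.0996 CPM at 30 min, and 0.568 and 0.562 CPM at 60 min. The 60 min libraries were separate, with a log2 fold change of 2.05 ± 0.56 (SE, edgeR adjusted p = 0.0268). CRK31 (AT4G11470) had 0.406 and 0 CPM at 0 min, 1.0 and 2.82 CPM at 30 min, and 2.32 and 2.36 CPM at 60 min in flu/ex1/ydl1. In flu/ex1, CRK31 had 0 and 0.788 CPM at 0 min, 0.588 and 0.399 CPM at 30 min, and 0 and 0.492 CPM at 60 min. Both flu/ex1/ydl1 libraries at 60 min lay above all flu/ex1 libraries, and the log2 fold change was 3.25 ± 0.93 (SE, edgeR adjusted p = 0.0316). That value rests on single libraries, being 7.50 without flu/ex1 60 min replicate 3 and 2.22, no longer called, without flu/ex1 60 min replicate 1. The calls of CRK31 and CRK36 were not made by DESeq2.

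The other 7 tested members were not called between genotypes at 60 min. CRK40 (AT4G04570), a member without a tandem neighbour here, had 11.2 and 12.8 CPM at 0 min, 19.97 and 24 CPM at 30 min, and 20.9 and 28.7 CPM at 60 min in flu/ex1/ydl1. In flu/ex1, CRK40 had 10.7 and 11.1 CPM at 0 min, 14.8 and 15 CPM at 30 min, and 17.8 and 16.4 CPM at 60 min. Its lit libraries lay above its dark ones in both genotypes, and its log2 fold change at 60 min was 0.55 (edgeR adjusted p = 0.186). CRK30 (AT4G11460) had 9.62 and 4.97 CPM at 0 min, 5.65 and 8.85 CPM at 30 min, and 3.75 and 4.56 CPM at 60 min in flu/ex1/ydl1. In flu/ex1, CRK30 had 6.5 and 9.36 CPM at 0 min, 4.7 and 4.09 CPM at 30 min, and 2.97 and 2.67 CPM at 60 min. Its dark libraries of the 2 genotypes overlapped, and its log2 fold change at 60 min was 0.58 (edgeR adjusted p = 0.376). The last 5 were called in none of the 10 comparisons. CRK5 (AT4G23130), a salicylic acid-responsive member that can trigger cell death, ranged over 0.893 to 2.26 CPM in flu/ex1/ydl1 and 0.554 to 1.57 CPM in flu/ex1, with a log2 fold change of 0.59 at 60 min. CRK6 (AT4G23140), known from responses to extracellular reactive oxygen, ranged over 0.785 to 2.66 CPM in flu/ex1/ydl1 and 0.490 to 1.83 CPM in flu/ex1, with 0.56 at 60 min. CRK21 (AT4G23290) ranged over 3.40 to 6.15 CPM in flu/ex1/ydl1 and 3.29 to 5.22 CPM in flu/ex1, with a log2 fold change of 0.03. CRK22 (AT4G23300) and CRK42 (AT5G40380) had negative estimates at 60 min, -0.73 and -0.52 on the log2 scale, with edgeR adjusted p = 0.285 and adjusted p = 0.413. CRK22 ranged over 2.28 to 3.92 CPM in flu/ex1/ydl1 and 2.74 to 5.55 CPM in flu/ex1, and CRK42 over 1.95 to 4.34 CPM in flu/ex1/ydl1 and 2.77 to 5.76 CPM in flu/ex1. CRK42 was lower in flu/ex1/ydl1 without overlap at both light times, while CRK22 overlapped at both. CRK42 had 3.89 and 1.95 CPM against 5.48 and 4.09 CPM at 30 min. At 60 min it had 3.40 and 4.18 CPM against 5.30 and 5.76 CPM.

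The 17 members too low to test had 3 to 84 counts over all 12 libraries. They are RKF2 (AT1G19090, also listed as CRK1), CRK4 (AT3G45860), CRK7 (AT4G23150), CRK8 (AT4G23160), CRK15 (AT4G23230), CRK16 (AT4G23240), CRK20 (AT4G23280), CRK23 (AT4G23310), CRK24 (AT4G23320), CRK25 (AT4G05200), CRK26 (AT4G38830), CRK27 (AT4G21230), CRK32 (AT4G11480), CRK33 (AT4G11490), CRK34 (AT4G11530), CRK37 (AT4G04500) and CRK38 (AT4G04510). The deepest of them were CRK4, with 45 counts in flu/ex1/ydl1 and 39 in flu/ex1, and CRK34, with 44 counts in flu/ex1/ydl1 and 40 in flu/ex1. CRK26 had 19 counts in flu/ex1/ydl1 and 42 in flu/ex1. RKF2 had 0 counts in flu/ex1/ydl1, which allows up to 3, and 4 in flu/ex1. CRK7, known from responses to extracellular reactive oxygen, had 29 counts in flu/ex1/ydl1 and 10 in flu/ex1. Summed over the 2 libraries at 0, 30 and 60 min, CRK4 had 2, 18 and 25 counts in flu/ex1/ydl1 and 8, 14 and 17 in flu/ex1. CRK34 had 11, 14 and 19 counts in flu/ex1/ydl1 and 11, 8 and 21 in flu/ex1. These 17 genes were not tested in the main fit, so their counts show neither a difference nor a lack of one.

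At 30 min, 9 of the 24 tested members were called higher in flu/ex1/ydl1 and 0 lower, where 3.92% of all genes tested were called. All 9 were also among the 17 called at 60 min, namely CRK3, EP1, CRK10, CRK11, CRK12, CRK13, CRK14, EMB1290 and CRK19. The median log2 fold change at 30 min was 1.26 over the members and -0.00351 over all genes. CRK11 had a log2 fold change of 2.40 ± 0.30 (SE, edgeR adjusted p = 0.000310) and CRK10 of 2.23 ± 0.25 (SE, edgeR adjusted p = 0.000213). CRK13 passed narrowly, at 1.34 ± 0.36 (SE, edgeR adjusted p = 0.0483). CRK36 had a larger estimate, 3.05 ± 0.91, and was not called (edgeR adjusted p = 0.0808), and CRK28 at 1.78 ± 0.56 was not called either (edgeR adjusted p = 0.0992). Leaving out flu/ex1/ydl1 30 min replicate 3, or either flu/ex1 30 min library, left fewer of these 9 calls. A lone library was then assumed to vary like the other groups. The share of all genes called is not given for these repeats, so the loss may not be particular to these members.

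In darkness, before light was given, 0 of the 24 members were called between genotypes by edgeR, and 0.0112% of all genes tested were. At an unadjusted p under 0.05 there was 1 member, CRK36, and 711 of all 17879 genes tested. DESeq2 called 0 members. CRK36 had 7 counts in the flu/ex1/ydl1 libraries together, against 0 in flu/ex1. Its level was 2.70-fold higher with flu/ex1 set to 3 counts in all, a value that takes the 7 counts as exact. The 14 positive and 10 negative estimates had a median of 0.10 on the log2 scale. CRK11, CRK3 and CRK41, with large differences at 60 min, had log2 fold changes of -0.43 ± 0.41, -0.54 ± 0.39 and -0.67 ± 0.53 (SE) in darkness, where their libraries had few counts.

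**Figure D3:**
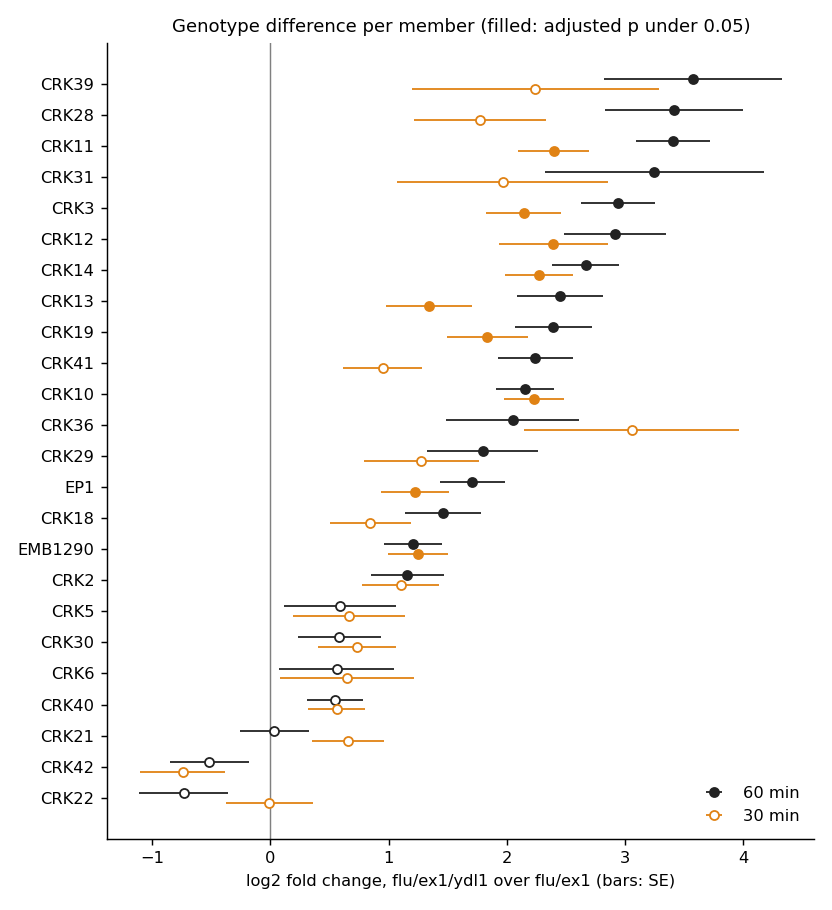
Log2 fold change of flu/ex1/ydl1 over flu/ex1 (horizontal axis, bars are SE) for the 24 tested members (vertical axis), at 60 min in black and at 30 min in orange. Filled points have an adjusted p under 0.05: 17 are filled at 60 min and 9 at 30 min, all to the right of 0.

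In flu/ex1/ydl1 most tested members rose with light. Between 60 and 0 min, 16 of the 24 members rose and 0 fell, where 12.8% of all genes were called, with a median log2 fold change of 2.19 over the members. The 16 include CRK31, CRK36 and CRK39, which entered the test only through lit flu/ex1/ydl1 and so had to differ, and among the other 21 members 13 rose. Between 30 and 0 min, 12 rose and 0 fell, with 5.39% of all genes called and a member median of 1.59. These comparisons share the flu/ex1/ydl1 libraries with each other and with the genotype comparisons. At 60 min over 0 min CRK11 had 4.29 ± 0.36 (SE, edgeR adjusted p = 1.23e-06), CRK41 4.23 ± 0.41 (SE, edgeR adjusted p = 3.52e-06) and CRK10 3.55 ± 0.28 (SE, edgeR adjusted p = 1.1e-06) on the log2 scale. CRK40, which was not called between genotypes, rose by 1.05 ± 0.25 on the log2 scale (SE, edgeR adjusted p = 0.00693). CRK39 had 58 counts at 60 min against 1 count at 0 min, a ratio of 46.5 after scaling with a 95% counting interval of 8.02 to 1868. CRK31 had 44 counts at 60 min against 3 at 0 min, a ratio of 11.8 with an interval of 3.77 to 59.2. Both intervals cover counting error only. CRK2 and CRK29, called between genotypes, were not called over light time in flu/ex1/ydl1, at 0.94 ± 0.32 and 1.47 ± 0.49 (SE, edgeR adjusted p = 0.0689 and adjusted p = 0.0631).

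The step from 30 to 60 min held no call. Between 60 and 30 min in flu/ex1/ydl1, 0 members were called by edgeR, where 0.543% of all genes were called. At an unadjusted p under 0.05 there were 5 members and 1400 of all 17879 genes tested. DESeq2 called 0 members as well, and edgeR called 1 without flu/ex1/ydl1 60 min replicate 1. The estimates were 1.95 ± 0.69 for CRK39, 1.37 ± 0.57 for CRK36 and 1.19 ± 0.31 for CRK41 (SE, edgeR adjusted p = 0.343, adjusted p = 0.509 and adjusted p = 0.107). CRK11, CRK10 and CRK14 had 0.27 ± 0.28, 0.16 ± 0.23 and 0.09 ± 0.25 (SE) between the same times.

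In flu/ex1 few members passed the test over light time. Between 30 and 0 min, 0 members were called by edgeR and by DESeq2, and edgeR called 0.649% of all genes. An unadjusted p under 0.05 was found for 7 members and for 1445 of all 17879 genes tested. Between 60 and 0 min, 1 member rose and 1 fell, where 1.38% of all genes were called. There, 9 of the 24 members had an unadjusted p under 0.05, as did 2597 of all 17879 genes tested. CRK10 rose by 1.28 ± 0.28 on the log2 scale (SE, edgeR adjusted p = 0.0285). CRK30 changed by -1.50 ± 0.33 (SE, edgeR adjusted p = 0.0341), a fall. The median over the members was 0.45 on the log2 scale, also with the 0 counts of CRK36 at 0 min set to 3. CRK36 had 17 counts at 60 min against 0 at 0 min, and was not called (edgeR adjusted p = 0.0913). It was 3.27-fold higher with the 0 min group set to 3 counts and the 17 counts taken as exact. The 2 calls in flu/ex1 rest on few libraries: neither stood without any 1 of the flu/ex1 libraries at 0 or 60 min. Leaving out either flu/ex1 library at 30 min also left fewer. The share of all genes called is not given for these repeats.

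The test of the difference itself asked whether the change from 0 to 60 min was larger in flu/ex1/ydl1 than in flu/ex1. It called 7 of the 24 members, all with a larger rise in flu/ex1/ydl1, where 3.26% of all genes were called. CRK11 had a log2 fold change of 4.29 in flu/ex1/ydl1 and of 0.46 in flu/ex1, a difference of 3.84 ± 0.51 (SE, edgeR adjusted p = 0.00120). CRK28 had 2.33 in flu/ex1/ydl1 and -1.45 in flu/ex1, a difference of 3.78 ± 0.91 (SE, edgeR adjusted p = 0.0288). CRK3 had 3.0 in flu/ex1/ydl1 and -0.48 in flu/ex1, a difference of 3.48 ± 0.50 (SE, edgeR adjusted p = 0.00132). CRK19 had 2.85 in flu/ex1/ydl1 and 0.03 in flu/ex1, a difference of 2.82 ± 0.54 (SE, edgeR adjusted p = 0.00738). CRK41 and CRK10 rose in flu/ex1/ydl1 and had positive estimates in flu/ex1 as well, with differences of 2.91 ± 0.62 and 2.28 ± 0.40 (SE, edgeR adjusted p = 0.0136 and adjusted p = 0.00393). CRK14 was the other called member, with a difference of 2.45 ± 0.46 (SE, edgeR adjusted p = 0.00606). CRK12, with 2.62 ± 0.77, did not pass (SE, edgeR adjusted p = 0.0821).

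**Figure D4:**
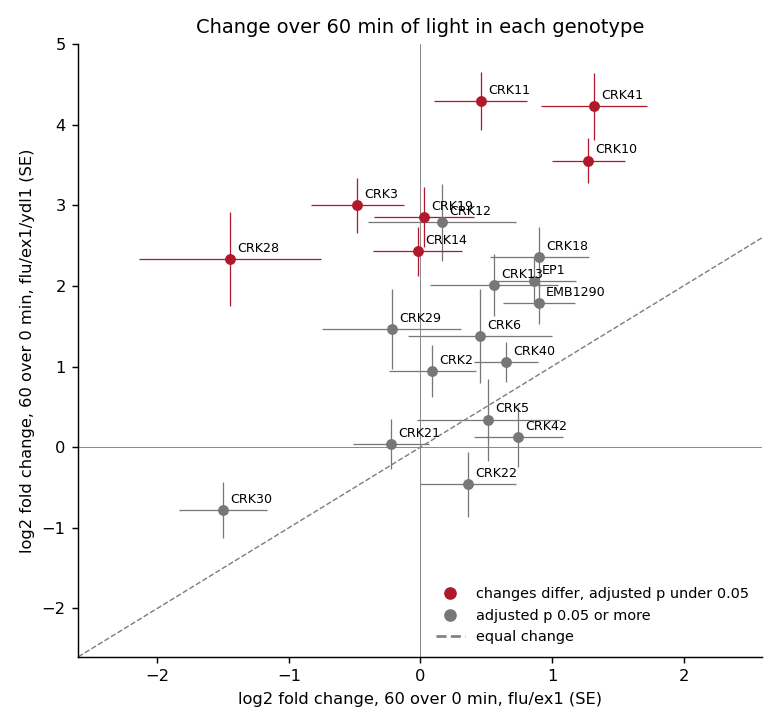
Log2 fold change between 60 and 0 min in flu/ex1/ydl1 (vertical axis) against that in flu/ex1 (horizontal axis) for 21 members, with SE as bars; CRK31, CRK36 and CRK39 are left out for their low dark counts. Red points are the 7 members whose change differed between genotypes and the dashed line marks equal change: CRK11 lies at 4.29 in flu/ex1/ydl1 and 0.46 in flu/ex1.

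Comparisons that lean less on light time were made because the time labels are in doubt. Averaged over the 3 times, 15 members were called higher in flu/ex1/ydl1 and 0 lower, where 8.97% of all genes were called, and 14 of the 15 were among the 21 that passed the filter in flu/ex1 alone. With genotype alone in the model and no light time, 9 members were called, all higher in flu/ex1/ydl1, where 4.18% of all genes were called, and 22 of 24 estimates were positive. Those 9 were CRK2, CRK3, EP1, CRK11, CRK12, CRK13, CRK14, CRK19 and CRK28. With the libraries grouped by the labelled times, edgeR called 0 members in each of the 10 comparisons, with 0 to 16 members at an unadjusted p under 0.05. The share of all genes called was then 0% in 8 of them, 0.0112% between genotypes at the labelled 0 min and 0.0336% over all labelled times. The median log2 fold change between genotypes was 1.65 at the labelled 60 min and 1.15 at the labelled 30 min, and 12 and 9 members had an unadjusted p under 0.05 there. The labelled 60 min groups held libraries with file-name times of 30 and 60 min, so they still compared lit libraries. Averaged over the labelled times, 22 of 24 estimates were positive, with a median of 1.31 and 16 members at an unadjusted p under 0.05. This average compared the same libraries of each genotype as the average over file-name times, so it was no separate check. In 4 libraries the label and the file name gave 1 time: flu/ex1/ydl1 0 min replicate 1, flu/ex1/ydl1 60 min replicate 1, flu/ex1 0 min replicate 2 and flu/ex1 60 min replicate 1. Between these single libraries, 19 of 24 members were higher in flu/ex1/ydl1 at 60 min, with a median log2 difference of 1.78. The median change from 0 to 60 min was 1.76 in flu/ex1/ydl1 and 0.55 in flu/ex1, with 19 and 16 members positive, and no test was run on them. The counts of positive members in these libraries, and the 22 of 24 above, are given without the matching share of all genes. They thus have no baseline. The positive members between genotypes include CRK31, CRK36 and CRK39 each time. Those members entered the test only through lit flu/ex1/ydl1, so the filter favoured a positive sign for them.

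Of the 41 members, 36 lie on chromosome 4 and 31 lie in 6 arrays of neighbouring genes. The array AT4G23130 to AT4G23270 held 15 members, of which 11 were tested. Of these, 9 were called at 60 min, all higher in flu/ex1/ydl1, where 9.86% of all genes tested were called. The array that follows it, AT4G23280 to AT4G23320, held 5 members of which 2 were tested, CRK21 and CRK22, and 0 of these were called. How multi-mapped reads were counted is not given in the sources used here. In the reference exons, the share of 50-base windows found in 1 place of the genome was 78.0% in CRK6, the lowest, and 84.6% in CRK13, the lowest among members called at 60 min, and 15 members reached 100%. The strand setting of the counting is not given either, and CRK19 and CRK42 overlap an annotated locus outside the family by 102 and 130 bases. Counts were also summed per array, so that reads misassigned between members of the same array do not matter. Reads shared between arrays, or with genes outside them, would still matter, and where the repeated windows lie was not checked. CRK13 and CRK22, with 84.6% and 83.8% of windows in 1 place, belong to different arrays. The sum of AT4G23130 to AT4G23270 had a log2 fold change of 2.12 ± 0.24 between genotypes at 60 min (SE, edgeR adjusted p = 1.37e-05). The pair AT1G70520 to AT1G70530 had 2.04 ± 0.29 (SE, edgeR adjusted p = 0.000116), and the pair AT4G21400 to AT4G21410 had 2.32 ± 0.44 (SE, edgeR adjusted p = 0.00161). AT4G04490 to AT4G04540 had 2.50 ± 0.50 (SE, edgeR adjusted p = 0.00257). The sum of AT4G23280 to AT4G23320 had -0.17 ± 0.28 (SE, edgeR adjusted p = 0.777) and that of AT4G11460 to AT4G11480 had 1.12 ± 0.35 (SE, edgeR adjusted p = 0.0563). With the 3 tested single genes this made 5 of 9 features called, a count given without the share of all features called in that fit.

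**Figure D5:**
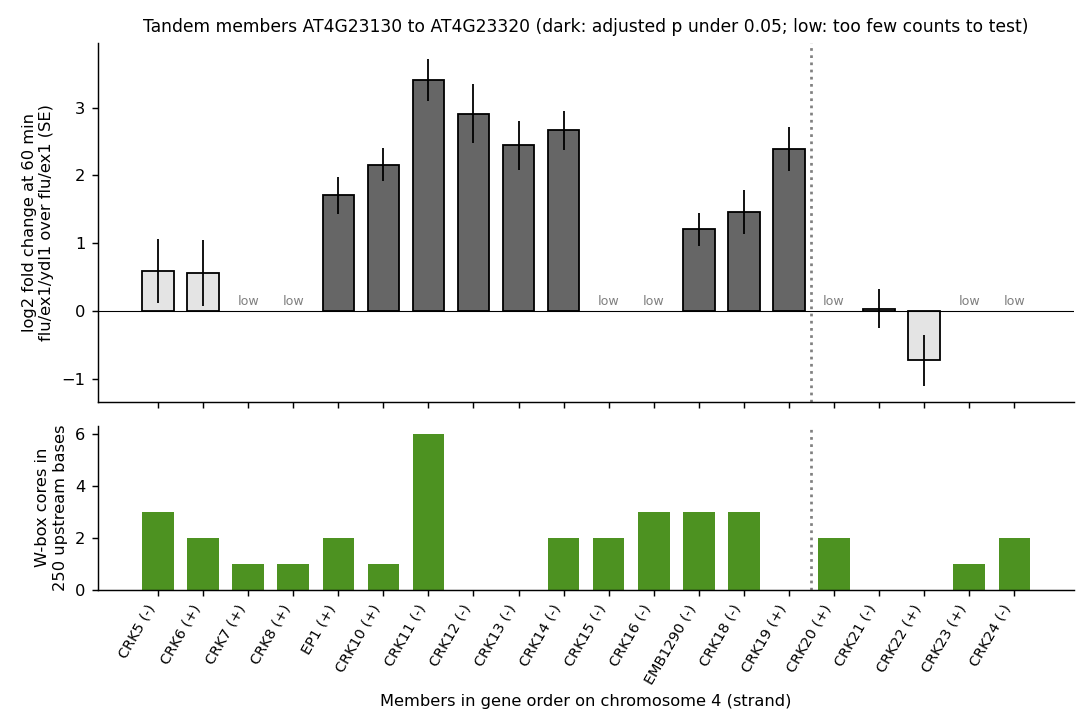
Upper axis: log2 fold change of flu/ex1/ydl1 over flu/ex1 at 60 min with SE, for the 20 members of the 2 neighbouring arrays in gene order, dark where called and marked low where not tested; lower axis: number of W-box cores in the 250 bases upstream. The 9 dark bars all lie left of the dotted line between the arrays, and the CRK11 window holds 6 cores.

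Per kilobase of exon, the most abundant members at 60 min in flu/ex1/ydl1 were CRK11 at 15 and CRK10 at 13.9 CPM per kilobase, then CRK40 at 8.02, EP1 at 7.57 and CRK41 at 7.15 CPM per kilobase. In flu/ex1 at 60 min the order began with CRK40 at 5.53 CPM per kilobase, then CRK10 at 3.12, EP1 at 2.29 and EMB1290 at 2.28. CRK11, first in flu/ex1/ydl1, stood at 1.43 CPM per kilobase in flu/ex1. The per-kilobase levels of CRK11 and CRK10 overlapped between libraries in flu/ex1/ydl1, as did those of EP1 and EMB1290 in flu/ex1.

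Other genes of cell-surface immunity were counted from 3 lists, which were chosen with earlier results of these data known. Of 20 immune receptors and associated kinases, 19 were tested and 15 were higher in flu/ex1/ydl1 at 60 min, 0 lower, with a median log2 fold change of 1.94. The 4 with the smallest p were SOBIR1, a co-receptor of receptor-like proteins, PEPR1, a receptor of Pep danger peptides, BKK1, a relative of BAK1, and the cytoplasmic kinase BIK1. SOBIR1 had 46.6 and 55.7 CPM in flu/ex1/ydl1 at 60 min, against 9.28 and 7.59 CPM in flu/ex1. Which list genes passed the filter on low counts only through lit flu/ex1/ydl1 was not checked. PEPR2 and RLP23, among the 15, were low in flu/ex1, at 0.138 to 1.10 and 0.0985 to 1.33 CPM. The filter may thus have favoured a higher call for them. Of 12 genes of the apoplastic oxidative burst and its calcium and MAP kinase relays, 7 were higher and 0 lower, with a median of 1.33. They included the NADPH oxidase RBOHD, with 133 and 168 CPM in flu/ex1/ydl1 at 60 min, against 23.7 and 28 CPM in flu/ex1, and the kinases MPK3, CPK28 and MKK4. Of 8 plasmodesmata-located proteins, which carry the DUF26 domain of the CRKs but no kinase, 6 were tested, 0 were called by edgeR in either direction, 3 had an unadjusted p under 0.05, and the median was 0.37. In the order given, the 3 lists had 9, 4 and 0 members called higher by edgeR at 30 min, where 3.92% of all genes were called. At an unadjusted p under 0.05 there were 14, 7 and 0 list members, and 2726 of all 17879 genes tested. Between 60 and 0 min, 13, 7 and 0 members rose in flu/ex1/ydl1, where 12.8% of all genes were called. The 13 include PEPR2 and RLP23. In flu/ex1 it was 0 in each list by edgeR, where 1.38% of all genes were called. There, 3, 2 and 0 list members had an unadjusted p under 0.05, as did 2597 of all 17879 genes tested. At 60 min between genotypes, 9.86% of all genes were called, and 3788 of 17879 had an unadjusted p under 0.05.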

How the data were processed

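The deposited values are whole-number read counts per locus, 1 file per library. Per the submitters' processing notes, the authors used Trimmomatic, FastQC, TopHat2 2.1.1 and featureCounts with the genome build TAIR10. Neither the gene annotation nor the strand and multi-mapping options are given in the sources used here. RNA was taken with Trizol and sequenced from TruSeq libraries, per the labels' protocols. The 41 members, the 3 gene lists and the tests were chosen with earlier results of these data known.

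Loci were kept with filterByExpr (minimum count 10, minimum total 15), which left 17879. The 6 groups of genotype and file-name time were fitted together with edgeR 4.0.16 in R 4.3.3, using TMM scaling, quasi-likelihood F tests and Benjamini-Hochberg adjustment over all genes tested in each of 10 comparisons, at a threshold of 0.05. The test was also tried on simulated data. The SE of a log2 fold change is its size divided by the square root of F. CPM use TMM-scaled totals of the 17879 loci kept by the filter, plastid loci among them included, and 1 count was worth 0.0631 to 0.179 CPM. Floors use 3 counts over a group and take the counts of the other group as exact. Floors cover counting error of the group at 0 only, and intervals cover counting error only. Levels per kilobase divide by the exon length of TAIR10.1. Per-library values are given for members past the threshold in any comparison, ranges for the others, and up to 4 genes of each list by smallest p. Alternatives were DESeq2 1.42.0, DESeq2 size factors, no filter, nuclear loci only, only the groups compared, the labelled times, a replicate block, each library left out, summed arrays and genotype alone. The comparison of 4 libraries whose label and file name give 1 time was added after the data were seen.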

Additional observations from a re-analysis of the deposited data

Results flagged for a closer look

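For 7 members the change from 0 to 60 min of light differed between flu/ex1/ydl1 and flu/ex1 by edgeR's test of the difference itself, adjusted over all genes tested. On the log2 scale the change in flu/ex1/ydl1 minus that in flu/ex1 was 3.84 for CRK11, 3.78 for CRK28, 3.48 for CRK3, 2.91 for CRK41, 2.82 for CRK19, 2.45 for CRK14 and 2.28 for CRK10. With the labelled times 0 of these differences passed, and with a replicate block 5 did, without CRK19 and CRK28 (edgeR adjusted p = 0.0648 and 0.0953).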

How the results depend on the processing

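With the labelled light times, edgeR called 0 members in every comparison, against 17 and 9 between genotypes at 60 and 30 min with the file-name times. All 17 members called at 60 min kept their direction without passing. The labelled 60 min groups were made of libraries with file-name times of 30 and 60 min, so this was no separate check of direction. Without the filter on low counts all 41 members were tested, and 1 was called between 60 and 30 min in flu/ex1/ydl1, 1 between 30 and 0 min in flu/ex1 and 4 between 60 and 0 min in flu/ex1. In the same order, 404, 363 and 701 of all genes were then called, against 97, 116 and 246 with the filter. Without the filter, 13 members were called between genotypes at 30 min and 19 between 60 and 0 min in flu/ex1/ydl1. With it these were 9 and 16. Of all genes, 1020 and 2637 were called there without the filter, against 700 and 2283 with it. Summed arrays gave 5, 2 and 5 called features of 9 between genotypes at 60 min, at 30 min and over all times. They gave 4 and 6 for 30 and 60 min against 0 min in flu/ex1/ydl1, 1 for 60 against 0 min in flu/ex1, and 3 for the difference in change. These counts are lower by construction, since fewer features are tested, and they are given without the share of all features called. Genotype alone in the model called 9 members.

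Leaving out each library in turn gave 10 to 17 members between genotypes at 60 min, 4 to 9 at 30 min and 12 to 15 over all times. It gave 8 to 13 and 12 to 18 for 30 and 60 min against 0 min in flu/ex1/ydl1, 0 to 1 for 60 against 30 min, 0 to 2 for 60 against 0 min in flu/ex1, and 5 to 7 for the difference in change. A lone library was then assumed to vary like the other groups. The counts from these repeats are given without the share of all genes called. Among the 17 members called at 60 min, 190 of these repeats kept the call, 14 lost it and 0 reversed. DESeq2 kept 15 of the 17 and called 1504 of all genes at 60 min, against 1763 by edgeR.

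The replicate numbers were checked as pairs: the correlation of deviations over 19 same-numbered pairs ran from -0.240 to 0.276, with 8 above 0.1. Within flu/ex1/ydl1 all 4 such pairs lay above it, at 0.124 to 0.210. With 2 libraries per group the deviations mirror each other, so some pairs hold the same value and are not separate. In flu/ex1/ydl1 the 0 and 30 min pairs of replicates 1 and 3 both had 0.160. Pairing by number is thus not shown over all libraries. A fit with the replicate block called 1 member for 60 against 0 min in flu/ex1 and kept 14 of the 17 at 60 min, without CRK2, CRK36 and CRK39. Between genotypes at 60 min this fit called 1546 of all genes, against 1763 without the block. For the difference in change it called 5 members, without CRK19 and CRK28, and 334 of all genes, against 582 without the block.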
